A study of Saccharomyces cerevisiae with 12 samples.

Results

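CUP1 and ENA are the tandem arrays of protein-coding genes for which copy number was read here from genomic DNA of ageing yeast. The members were the 5 genes CUP1-1, CUP1-2, ENA5, ENA2 and ENA1, and they were followed in the windows that contain a whole array. Of 2441 windows of 25 kb placed every 5 kb, 5 contained the CUP1 genes on chromosome VIII (212535 to 214718, R64 build) and 3 contained the ENA genes on chromosome IV (527422 to 538467). Each array was compared with 20 flank windows, 10 on either side, whose nearest edge lay within 50 kb of the array and that did not touch its genes.

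CUP1 encodes a small cysteine-rich metallothionein that binds copper ions and protects the cell from copper. The ENA genes encode P-type ATPases of the plasma membrane that export sodium and lithium ions. Tandem copies of this kind can be gained or lost when sister chromatids or homologues recombine out of register, or when a copy is excised as a circle, and strains of budding yeast are known to differ in the number of copies of both genes. The ribosomal DNA (rDNA) is the other large tandem array of this genome.

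The cells were diploids with the mother enrichment program, which makes newborn daughters inviable after estradiol treatment and lets mother cells age in bulk culture. All strains carried a Cre recombinase fused to an estradiol-binding domain under the daughter-specific SCW11 promoter, loxP-flanked UBC9 and CDC20 genes and a trp1 deletion. Wild type was compared with homozygous mutants lacking SPT3 (a subunit of the SAGA coactivator), RAD52 (the mediator of strand exchange in homologous recombination) or SAC3 (a subunit of the TREX-2 complex at the nuclear pore), each deleted with a TRP1 marker that wild type lacked. Cells grew in YPD and were taken at log phase, or were aged for 24 h or 48 h, and each of the 12 combinations of genotype and time gave 1 library. According to the methods estradiol was added later in the sac3 mutant than in wild type and the spt3 mutant, and later still in the rad52 mutant. Log phase cells were taken from the starting culture without estradiol, whereas aged mothers were biotin-labelled, grown with estradiol and recovered on magnetic beads. Age therefore cannot be told apart from estradiol treatment and this recovery. The paper takes rad52 cells to have ended their replicative life before 24 h. There was no replicate in any group, so a single library's value has no replicate check, and the 3 libraries of a genotype came from 1 strain. Copies in a chromosomal array and copies on a circle give the same reads, and a change in every cell cannot be told apart from a larger change in some cells.

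The deleted genes served as a check of the labels. Where windows begin or cease to hold the gene the signal stepped, relative to wild type, to 0.957, 0.959 and 0.967 for the missing SPT3, to 0.959, 0.930 and 0.963 for the missing RAD52 and to 0.850, 0.851 and 0.842 for the missing SAC3 (log phase, 24 h and 48 h). A full deletion would give 0.959, 0.943 and 0.844 at these 3 genes. The lowest step in the mutants that keep the gene was 0.990, 0.989 and 0.977. Counted in non-overlapping windows, the depth was 5261601 to 12147987 reads per library. The windows holding the CUP1 array held 11693 to 36091 reads at the median, a counting error of 0.526% to 0.925%, and those holding the ENA array 6990 to 22616 reads, a counting error of 0.665% to 1.20%.

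In the reference genome both arrays are made of near-identical units, which is shown here because reads cannot be assigned to single copies. The CUP1 genes lie on the reverse strand and were identical over all 186 coding bases. The coding sequence of CUP1-1 is printed with its 12 cysteine codons, of 62 codons, in capitals.
CUP1-1: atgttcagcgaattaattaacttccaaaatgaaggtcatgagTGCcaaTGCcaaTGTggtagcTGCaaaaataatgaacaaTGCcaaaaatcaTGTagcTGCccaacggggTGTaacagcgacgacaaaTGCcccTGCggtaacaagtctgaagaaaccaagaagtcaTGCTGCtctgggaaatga

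The CUP1 unit measured 1998 bp, and the stretch that occurs more than once extended past the genes on both sides, from 212266 to 216251 (3986 bp, identical at 100% of 1988 compared bases). Besides the CUP1 genes a unit holds RUF5, a non-coding RNA gene overlapping CUP1, the small reading frames YHR052C-B and YHR054C-B, and YHR054C, a partial duplicate of RSC30 (a subunit of the RSC chromatin remodelling complex). The stretch also takes in 1069 bp of RSC30 itself, whereas CIC1, to the left, lies outside it. The edges are printed in the forward direction to show where a unit begins and where the repeated stretch ends (212246 to 212305, 214244 to 214303 and 216212 to 216271). Capitals mark the start of a unit in the first and the second line and the end of the last unit in the third. The lower-case bases of the second line are the end of the first unit and lie inside the repeated stretch, whereas those of the other lines lie outside it.
First unit, left edge: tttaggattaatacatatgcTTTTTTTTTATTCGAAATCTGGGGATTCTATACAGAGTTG
Second unit, left edge: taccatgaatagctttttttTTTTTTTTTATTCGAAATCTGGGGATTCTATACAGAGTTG
Last unit, right edge: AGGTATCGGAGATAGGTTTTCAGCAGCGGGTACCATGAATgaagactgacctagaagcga

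The ENA unit measured 3885 bp and the repeated stretch 11063 bp (527420 to 538482), with KRS1, the lysyl-tRNA synthetase gene, as its left neighbour and, on the right, RSM10, a gene for a mitochondrial ribosomal protein. The 3 genes are 3276 bp long, all on the reverse strand in the order ENA5, ENA2, ENA1. ENA5 and ENA2 differed at 34 coding positions, ENA2 and ENA1 at 43 and ENA5 and ENA1 at 77. The positions that set ENA1 apart and those that set ENA5 apart clustered at opposite ends of the genes in the stretches shown, the coding bases 1 to 60 and 3216 to 3275, in which every position that differs among the 3 genes is in capitals. In the first stretch ENA1 stood apart at all 9 such positions.
ENA5, bases 1 to 60: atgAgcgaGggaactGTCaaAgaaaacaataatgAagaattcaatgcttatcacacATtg
ENA2, bases 1 to 60: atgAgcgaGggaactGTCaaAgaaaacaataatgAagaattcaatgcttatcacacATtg
ENA1, bases 1 to 60: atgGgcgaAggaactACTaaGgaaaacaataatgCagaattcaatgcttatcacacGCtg
In the other stretch ENA5 stood apart at all 19 such positions.
ENA5, bases 3216 to 3275: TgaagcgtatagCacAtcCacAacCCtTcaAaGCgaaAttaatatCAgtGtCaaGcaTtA
ENA2, bases 3216 to 3275: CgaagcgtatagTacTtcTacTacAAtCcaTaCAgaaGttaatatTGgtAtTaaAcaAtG
ENA1, bases 3216 to 3275: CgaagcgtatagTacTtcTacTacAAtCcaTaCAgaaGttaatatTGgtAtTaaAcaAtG

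A read of 75 bases could not be placed in a single copy from most of these positions: 97.9% of the starts in the CUP1 stretch and 92.7% of those in the ENA stretch have a second exact match in the reference. The window signal thus measures all copies of an array together, and no level of a single gene is given. The array-to-flank ratio is the median signal of the windows holding the whole array over the median of the flank windows of the same library. A strain with as many copies as the reference would have a ratio near 1, 1 further CUP1 copy would add 0.0799 and 1 further ENA copy 0.155. Copies per haploid genome were estimated from this relation, which assumes that each read was counted at 1 position. How reads with several matches were treated is not given in the sources used here, and the ratios and copy numbers of both arrays depend on it. The error given with them is the SD of the flank windows, expressed in copies. Flank windows overlap, and this SD describes how the signal varies along the chromosome, not the error of a repeated measurement.

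CUP1 stood above its flank in all 12 libraries, at 1.54 to 1.84 times the flank, and its ratio was lower in aged than in log phase cells in 7 of 8 comparisons. Wild type had a ratio of 1.78 at log phase, of 1.57 at 24 h and of 1.63 at 48 h. The spt3 mutant had 1.80, 1.58 and 1.60, the rad52 mutant 1.82, 1.69 and 1.84, and the sac3 mutant 1.76, 1.54 and 1.54 at the same times. All 4 log phase libraries were above 7 of the 8 aged libraries, and the exception was the rad52 mutant at 48 h, the highest of all 12. The deposited signal itself lay between 21232 and 22324 at log phase and between 19226 and 21970 in aged cells, against flank medians of 12042 to 12253 and 11926 to 12761.

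Converted to copies, wild type carried 11.8 ± 1.13 CUP1 copies per haploid genome at log phase, then 9.11 ± 1.89 and, by 48 h, 9.93 ± 1.91 (SD over 20 flank windows). In the same order the spt3 mutant had 12.02 ± 1.24, 9.22 ± 1.59 and 9.50 ± 1.98 copies. The rad52 mutant had 12.3 ± 1.14, 10.6 ± 1.47 and 12.5 ± 1.09, and the sac3 mutant 11.5 ± 1.19, 8.70 ± 1.83 and 8.71 ± 1.65. All 12 estimates were above the 2 copies of the reference. The 4 log phase estimates spanned less than the flank SD of any of them. Aged libraries differed from log phase by -2.85 to 0.25 copies. The flank SDs were 1.09 to 1.98 copies, but they do not measure the error of this change. Part of them is a profile along the chromosome that the libraries share.

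**Figure D1:**
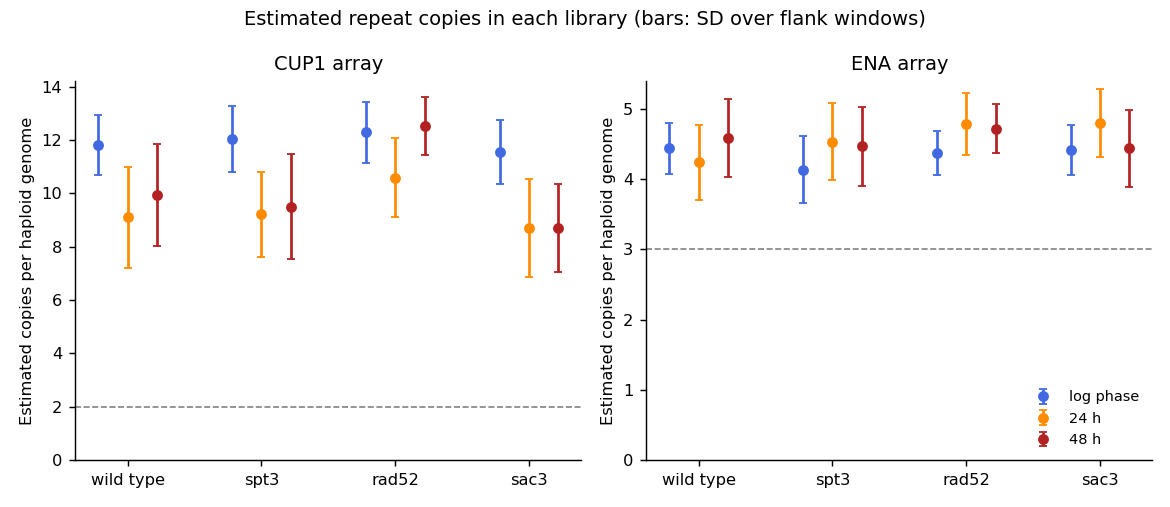
Estimated copies of CUP1 (left) and ENA (right) per haploid genome in each of the 12 libraries, grouped by genotype and coloured by time point. Bars give the SD over the 20 flank windows and dashed lines the number of copies in the reference (2 and 3). CUP1 lies between 8.70 and 12.5 copies and ENA between 4.14 and 4.80.

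Whether the arrays change with age was asked over the 4 genotypes together. The log2 CUP1 ratio fell by 0.15 on average, in all 4 genotypes (two-sided exact permutation of time points within genotypes, 81 relabellings, p = 0.0247, adjusted p = 0.0494 over the 4 array tests). Wild type changed by -0.16, the spt3 mutant by -0.18, the rad52 mutant by -0.05 and the sac3 mutant by -0.20. The 48 h libraries were not below those of 24 h, at 1.04 times their ratio in wild type, 1.01 times in the spt3 mutant, 1.09 times in the rad52 mutant and 1.00 times in the sac3 mutant. Both aged libraries of a genotype share its response, which this test counts as separate. With flank windows within 100 kb the change was -0.073 and the call was lost (exact permutation p = 0.0494, adjusted p = 0.0988).

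Across all 2423 nuclear windows, limma on the log2 window-to-flank ratio called 1010 (41.7%) changed with age at an adjusted p under 0.05, of which 436 (18.0% of all windows) were lower and 574 (23.7%) higher. All 5 CUP1 windows were called lower. Their fitted changes ran from -0.15 to -0.08 (limma adjusted p 0.00729 to 0.0316), against a median of -0.0065 over all windows. The 5 windows overlap and hold the same array, so they are not separate observations. With so large a share of the genome called, a call at CUP1 by itself does not set the array apart. Of the alternatives, flank windows within 100 kb left 2 of the 5 called, GC correction 2, leaving out wild type or the spt3 mutant 0 in either case, and the 48 h libraries alone 0. Over the genome these settings called 946, 732, 315, 253 and 281 windows changed with age, in that order.

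**Figure D2:**
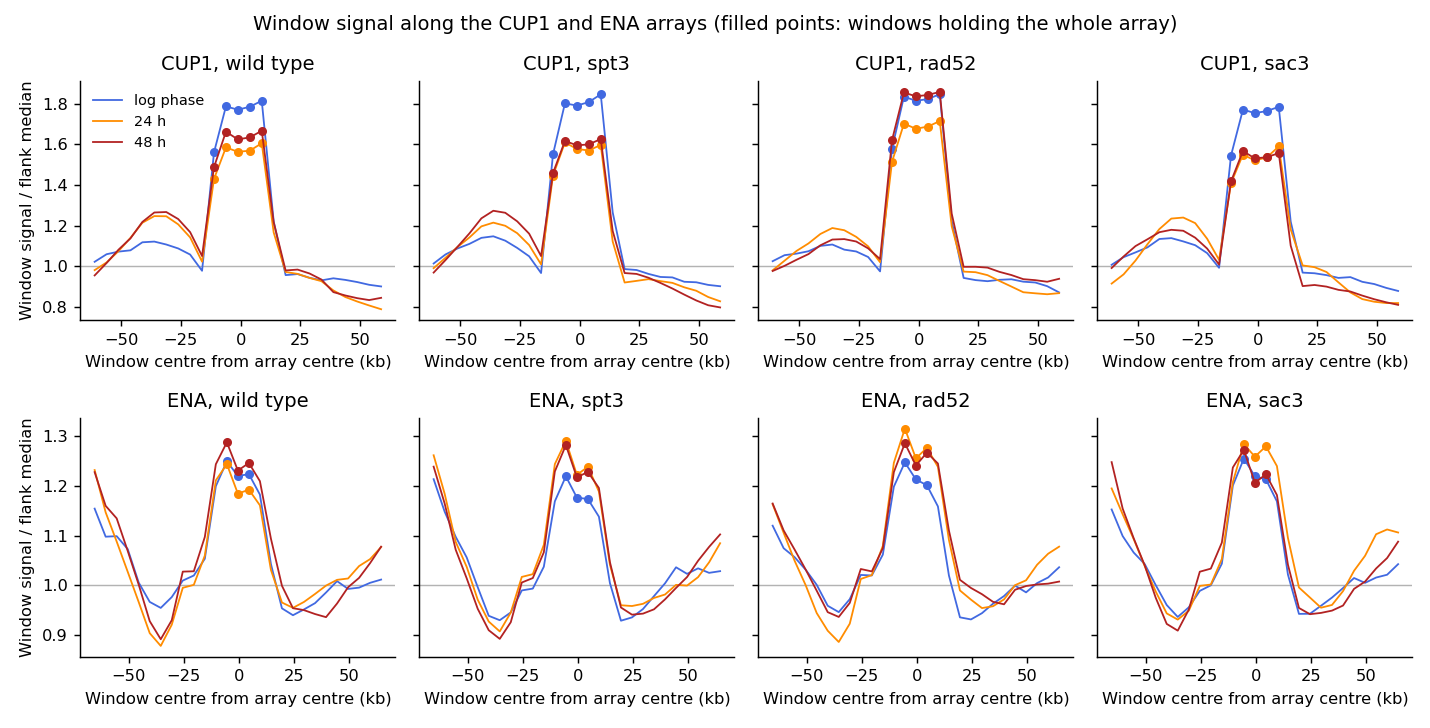
Window signal over the flank median of the same library (vertical axis) against the distance of the window centre from the centre of the array in kb (horizontal axis), for CUP1 (top) and ENA (bottom) in the 4 genotypes at log phase, 24 h and 48 h. Filled points are the windows that hold the whole array. The CUP1 windows form a plateau with sharp edges, lower in aged than in log phase libraries except for the rad52 mutant at 48 h, while the ENA windows rise less above a flank that itself varies.

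The excess signal at CUP1 lay where the repeated stretch lies. The window from 190001 to 215000 holds 68.6% of that stretch, and its share of the step from the window left of the array to the full plateau was 72.0% at the median over libraries (70.0% to 73.2%). The window from 215001 to 240000 holds none of the CUP1 genes and was counted in the flank, but it contains the remaining 31.4% and carried 30.7% of the excess (29.8% to 34.5%). This last window holds the part of RSC30 that belongs to the unit. Most reads of the stretch match more than 1 place in the reference, so the split depends on how they were placed. It does not show where further copies lie. The flank was not level. The window from 160001 to 185000 on the left stood at 1.10 to 1.14 times the flank median at log phase and 1.10 to 1.24 times in aged libraries. The window from 255001 to 280000 on the right stood at 0.894 to 0.909 and at 0.807 to 0.924 times. The flank SD was 0.0900 to 0.0989 of the flank median at log phase and 0.0875 to 0.158 in aged cells.

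GC content moved with the same contrast. The repeated CUP1 stretch has 31.8% GC, against a median of 38.6% in its flank windows, and the ENA stretch has 40.2% against 37.1%. Across 2120 windows outside chromosome XII and the arrays, the log2 signal rose by 0.0349 to 0.0474 per percentage point of GC in the log phase libraries and by 0.0574 to 0.112 in the aged ones, so windows of low GC content had relatively less signal in aged cells. The smallest rise of this slope over log phase, 0.0225, belonged to the rad52 mutant at 48 h, the library in which CUP1 was not lower. The largest, 0.0653, belonged to wild type at 48 h, with a CUP1 ratio of 0.916 times log phase. In the sac3 mutant the rise was 0.0542 at 24 h and 0.0428 at 48 h, with a CUP1 ratio of 0.871 times log phase at both times. Among the aged libraries the 2 values thus did not keep the same order, and a link between them was not tested. When each window was corrected for its GC content, the mean change of CUP1 was -0.079 (exact permutation p = 0.0247, adjusted p = 0.0494). When the slope was instead carried on to the GC content of the repeated stretch itself, the change was -0.0079 (exact permutation p = 0.790, adjusted p = 0.790), and 4 of the 8 aged libraries were above log phase, from 0.932 to 1.07 times. No window in the fit had a GC content under 35.0%, so this last correction goes beyond the measured range, and it was chosen after the data had been examined. The change of CUP1 with age therefore depended on how GC content was treated.

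**Figure D3:**
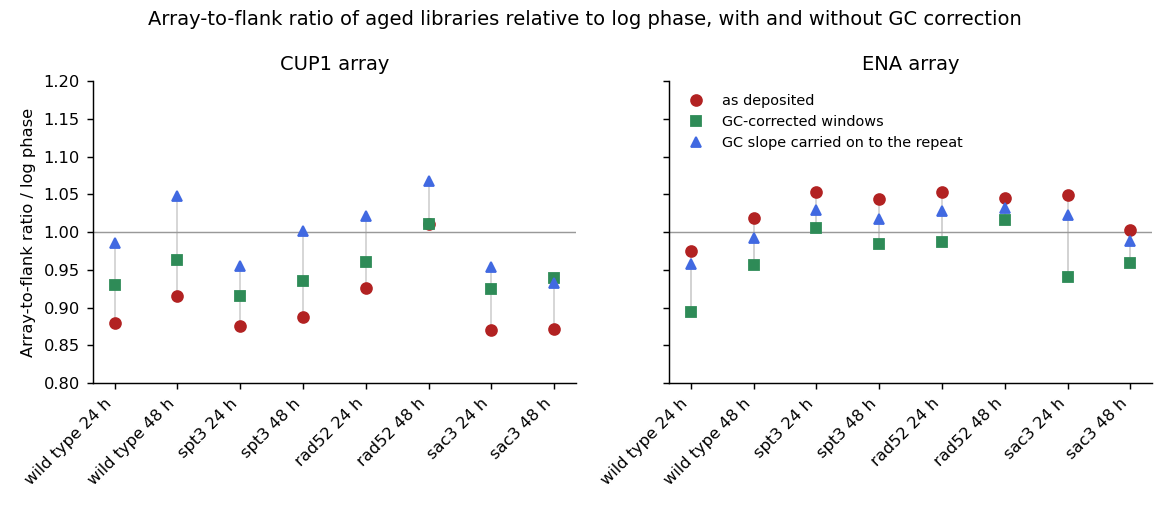
Array-to-flank ratio of each aged library over that of its genotype at log phase, for CUP1 (left) and ENA (right), from the deposited signal (circles), after correction of every window for GC content (squares) and with the GC slope of each library carried on to the repeated stretch (triangles). For CUP1 the circles lie from 0.871 to 1.01 and the triangles from 0.932 to 1.07.

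Differences among the genotypes in CUP1 were asked with the genotype labels exchanged within each time point. The log2 ratios of the 3 libraries of a genotype deviated from their time point mean by 0.09 on average for rad52, -0.06 for sac3, -0.02 for spt3 and -0.01 for wild type, and the genotypes differed (exact permutation with 13824 relabellings, p = 0.00694, adjusted p = 0.0278). At log phase the rad52 mutant was at 1.02 times wild type, and at 24 h and 48 h at 1.08 and 1.13 times. The sac3 mutant was at 0.988, 0.979 and 0.940 times wild type, and the spt3 mutant at 1.01, 1.01 and 0.979. In copies the rad52 mutant at 48 h exceeded wild type by 2.61 and the sac3 mutant at 48 h was 1.22 below it. The call was lost when any 1 genotype was left out, with an adjusted exact permutation p of 0.0741 without wild type, 0.111 without spt3, 0.222 without rad52 and 0.148 without sac3, where 0.0278 is the smallest unadjusted p that 3 genotypes allow. It was also lost with flank windows within 100 kb (exact permutation, adjusted p = 0.0556), with the GC slope carried on to the repeat (adjusted p = 0.0903), and with the signal step at the window edges (0.0764) or at the edges of the repeated stretch (0.0556). Without the 24 h or the 48 h libraries the adjusted exact permutation p was 0.250 or 0.167. There 0.0417 is the smallest unadjusted p possible, and the run without the 48 h libraries was at it. The test asks only whether libraries of 1 strain resemble each other, so a difference between strains before ageing and an effect of the deletion cannot be told apart. At single windows limma called 5 of 2423 windows different among genotypes (0.206%) and none of the 5 CUP1 windows (adjusted p 0.279 to 0.309, with unadjusted p of 0.0330 to 0.0599). Whether the genotypes differed in their change with age was not tested.

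ENA stood less far above its flank than CUP1, at 1.18 to 1.28 times the flank. Wild type had a ratio of 1.22 at log phase, of 1.19 at 24 h and of 1.25 at 48 h. The spt3 mutant had 1.18, 1.24 and 1.23, the rad52 mutant 1.21, 1.28 and 1.27, and the sac3 mutant 1.22, 1.28 and 1.22. In 7 of 8 comparisons the aged library was above its log phase library, the exception being wild type at 24 h, and the ranges of log phase (1.18 to 1.22) and aged libraries (1.19 to 1.28) overlapped.

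The estimates corresponded to 4.44 ± 0.37 ENA copies per haploid genome in wild type at log phase, then 4.24 ± 0.53 and, by 48 h, 4.59 ± 0.56 (SD over 20 flank windows). In the same order the spt3 mutant had 4.14 ± 0.48, 4.54 ± 0.55 and 4.47 ± 0.57 copies. The rad52 mutant had 4.37 ± 0.32, 4.78 ± 0.44 and 4.72 ± 0.35, and the sac3 mutant 4.41 ± 0.36, 4.80 ± 0.48 and 4.44 ± 0.55. All 12 estimates lay within 1 copy of each other and above the 3 copies of the reference. That level depended on the denominator. The median over libraries was 4.46 copies with flank windows within 50 kb, 3.62 with those within 100 kb and 3.18 when the median nuclear window was used.

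The mean change of the log2 ENA ratio with age was 0.04, in the same direction in 3 of 4 genotypes, and did not pass the test (exact permutation p = 0.0741, adjusted p = 0.0988). Wild type changed by -0.01, the spt3 mutant by 0.07, the rad52 mutant by 0.07 and the sac3 mutant by 0.04. On the window-to-flank ratio limma called none of the 3 ENA windows (adjusted p 0.0761 to 0.368, with 1 unadjusted p under 0.05), whereas on log2(signal + 1), with no flank, it called 2 of the 3 lower (-0.12 to -0.10, limma adjusted p 0.0215 to 0.0655 over the 3 windows). On log2(signal + 1) limma also called 4 of the 5 CUP1 windows lower (-0.12 to -0.06 over the 5), and 837 windows over the genome changed with age in either direction. The 2 calls at ENA by themselves therefore do not set this array apart. The ENA flank itself differed with age. Relative to the median nuclear window, the ENA flank stood at 0.863 to 0.889 at log phase and at 0.762 to 0.861 in aged libraries. With the median nuclear window as denominator the ENA change was therefore -0.10, past the threshold (exact permutation p = 0.0247 and, adjusted, p = 0.0329). The direction was also reversed with flank windows within 100 kb (-0.0096) and after GC correction of the windows (-0.049), without passing the test. The genotypes did not differ by the test in ENA (exact permutation p = 0.359, adjusted p = 0.359), with mean deviations of -0.02 to 0.02. For genotypes limma called none of the ENA windows (adjusted p 0.723 to 0.853), beside 0.206% of all windows.

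Ty and LTR sequences, which are repeated elsewhere in the genome, touch 2 of the 3 ENA windows and 3 of the 20 ENA flank windows. In the 1 array window without them, from 525001 to 550000, and with such windows left out of the flank, the change with age was 0.05 (exact permutation p = 0.0494, adjusted p = 0.0658). The windows cut by the edges of the ENA stretch followed its extent less closely than at CUP1. Those holding 23.3%, 68.5%, 76.7% and 31.5% of the stretch carried 19.4%, 78.6%, 85.4% and 32.7% of the excess at the median over libraries.

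Set against each other with their own flanks within 50 kb, the changes of the arrays with age differed by -0.19 on the log2 scale (CUP1 minus ENA), with the same sign in all 4 genotypes (p = 0.0123 by exact permutation, the smallest that 81 relabellings can give). This difference depended on the denominator and on GC content. It was -0.063 with flank windows within 100 kb (exact permutation p = 0.0741), -0.030 after GC correction of the windows (exact permutation p = 0.247), -0.020 with the GC slope carried on to the repeats (exact permutation p = 0.531) and -0.015 with the median nuclear window as denominator (exact permutation p = 0.642). With the median nuclear window ENA changed by -0.10 and CUP1 by -0.12. The 2 ratios are also on unlike scales, since 1 copy adds 0.0799 to the CUP1 ratio and 0.155 to the ENA ratio. The comparison is thus one of window ratios and not of changes in copies. It was added after the data had been examined. The GC contents given above run in opposite directions for the 2 repeated stretches.

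**Figure D4:**
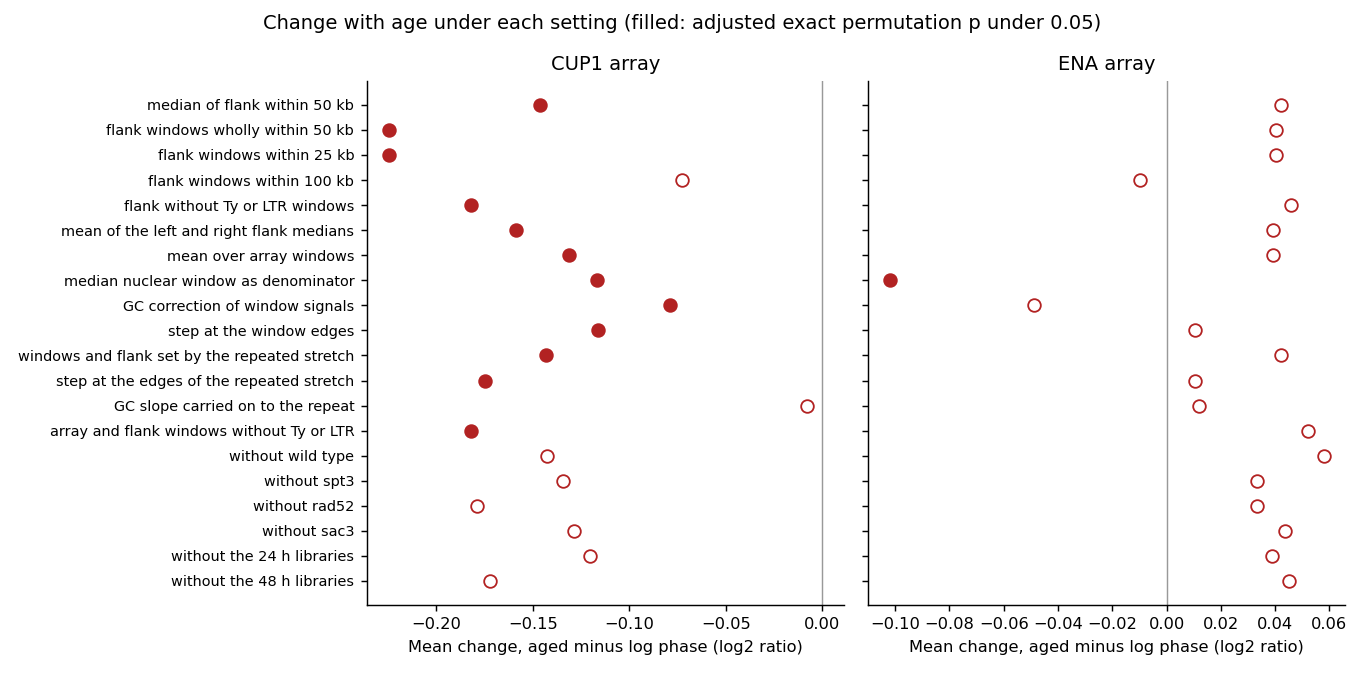
Mean change of the log2 array-to-flank ratio from log phase to aged libraries over the genotypes (horizontal axis) under each setting (rows), for CUP1 (left) and ENA (right). Filled points had an adjusted exact permutation p under 0.05. CUP1 lies under 0 in every row, from -0.22 to -0.0079, and ENA lies from -0.10 to 0.06.

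The rDNA, read in the 2 windows that hold both of its annotated units, moved on another scale. Its signal over the median nuclear window was 67.7 in wild type at log phase, with 6.90 times that level at 24 h and 14.1 times at 48 h. Over their own flanks, CUP1 then stood at 0.879 and 0.916 times log phase and ENA at 0.974 and 1.02 times. In the aged mutants the rDNA stood at 1.20 to 1.46 times log phase, while CUP1 stood at 0.871 to 1.01 and ENA at 1.00 to 1.05, again over their flanks. The denominators thus differ, and so does the share of repeated sequence. In the reference 1 CUP1 unit fills 0.0799 of a window and 1 ENA unit 0.155, so a change in copies is diluted in the array ratios. Converted to copies, wild type went from 11.8 at log phase to 9.11 and 9.93 for CUP1, and from 4.44 to 4.24 and 4.59 for ENA. The array ratios are therefore not fold changes of the repeats. With the median nuclear window for the arrays as well, the mean log2 change with age was -0.12 for CUP1 and -0.10 for ENA. These values are side by side as a description, without a test.

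CUP1 stood above every other window compared at log phase, whereas in most aged libraries some of these windows reached it. At log phase none of 2120 other full-length windows outside chromosome XII reached the CUP1 ratio in any genotype. In aged libraries 0 (the rad52 mutant at 48 h) to 154 (the spt3 mutant at 48 h) of the 2120 windows did. CUP1 thus stayed above most windows at every age, while the spread of the other windows was wider in aged cells. The highest other window was at 1.52 to 1.62 times its flank at log phase and at 1.73 to 2.54 in aged cells. For ENA, 243 to 376 of the 2120 windows were at or above the array at log phase and 229 to 543 in aged libraries.

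Single-copy loci of the same physiology were read in the window nearest each gene, as a description of windows that hold many other genes. Of 14 loci of copper handling, limma called 2 higher and 2 lower with age, with a median change of -0.02 over the list, against 41.7% of all windows called. The windows of CRS5 (a second metallothionein, 0.11 ± 0.03 on the log2 scale, SE, adjusted p = 0.0108) and SOD1 (the cytosolic superoxide dismutase, 0.20 ± 0.05, adjusted p = 0.0148) were higher. Those of CTR1 (the high-affinity copper transporter, -0.14 ± 0.03, adjusted p = 0.0107) and ATX1 (a copper chaperone, -0.10 ± 0.02, adjusted p = 0.00453) were lower. The window of CUP2, the activator of CUP1 transcription, changed by -0.05 (SE 0.04, limma adjusted p = 0.334).

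Of 14 loci of sodium and potassium handling, 3 were called higher and 2 lower, with a median change of -0.01, against 23.7% of all windows called higher and 18.0% lower. The windows of TRK2 (a potassium transporter, 0.19 ± 0.04, limma adjusted p = 0.00568), CNB1 (the regulatory subunit of calcineurin, 0.31 ± 0.07, adjusted p = 0.00864) and PPZ1 (a phosphatase that acts in salt tolerance, 0.09 ± 0.03, adjusted p = 0.0194) were higher. Those of NHX1 (an endosomal sodium-proton exchanger, -0.17 ± 0.03, adjusted p = 0.00651) and PMA1 (the plasma membrane proton pump, -0.16 ± 0.04, adjusted p = 0.0114) were lower. The window of NRG1, a repressor of ENA1 transcription, overlaps the ENA array and changed by 0.05 (SE 0.02, adjusted p = 0.130). None of the 28 loci was called different among genotypes, beside 0.206% of all windows, so the lack of calls does not set these loci apart.

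The windows most like CUP1 over the 12 libraries lay on chromosome XVI from 545001 to 570000 (Pearson r = 0.971, 11 protein-coding genes from AEP3 to ICL2), on XVI from 175001 to 200000 (r = 0.938, from OXR1 to RTC6) and on X from 585001 to 610000 (r = 0.927, from TMH11 to RPL43B). For ENA they were XVI from 710001 to 735000 (r = 0.884, from SUA7 to PRE2), VI from 55001 to 80000 (r = 0.867, from YPT1 to CAK1) and XV from 930001 to 955000 (r = 0.863, from SNC2 to KRE5). They were picked as the highest of 2310 and 2308 windows, and all windows of a library share its depth and GC slope. The CUP1-like windows had 37.6%, 37.0% and 37.6% GC and stood at 0.716 to 0.978 times their flanks. None of them holds a CUP1 copy, and that from 545001 touches a Ty or LTR sequence.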

How the data were processed

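Genomic DNA of 12 libraries was read as 75-base single-end reads. The authors trimmed them with Trim Galore 0.6.6, aligned them to the R64 build (the methods name Bowtie 2, whereas the submitters' processing notes list HISAT2 2.1.0), counted them in 25 kb windows every 5 kb and scaled every library by its size factor. The values deposited are this normalised signal. How reads with several matches and duplicates were treated is not given in the sources used here, and the table holds the CUP1 and ENA windows that the methods describe as excluded. Within each library at least 99.9% of values were whole multiples (tolerance 0.1) of 1 step, taken as the value of 1 read to describe depth only. Intervals and errors from it cover counting error only.

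Annotation, sequences and repeats came from the RefSeq copy of R64, whose chromosomes end where the last windows of the table end. Ratios and copies per haploid genome (reference copies plus the ratio minus 1, times window length over unit length) were computed from the deposited signal. The statistics were an exact permutation of time points within genotypes and of genotypes within time points, adjusted by Benjamini-Hochberg over the 4 array tests, and limma 3.58.1 (R 4.3.3) on log2 window-to-flank ratios of 2423 nuclear windows, with terms for genotype and for age (both aged time points together). Python 3.11.15 with numpy 2.4.6, pandas 2.3.3, statsmodels 0.14.6 (lowess, fraction 0.5) and matplotlib 3.10.9 did the rest. On simulated data limma called 99.5% of windows changed 1.3-fold, a larger change than any fitted at the array windows. The permutations gave p under 0.05 for 100% of 200 age shifts and 70% of 40 genotype shifts of 0.1 on the log2 scale. Without a shift they did so in 3.0% of 200 age runs and 5.0% of 40 genotype runs.

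The named genes were the members, their neighbours, 2 lists of 14 loci and, for each array, the 3 non-overlapping windows most correlated with it. The members, lists and tests were chosen with earlier results of these data known. Flank reach, flank summary, denominator, Ty and LTR windows, GC content, genotypes and time points were varied, and 6 further alternatives or tests were chosen after the data had been examined.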

Additional observations from a re-analysis of the deposited data

How the results depend on the processing

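With all libraries, the fall of CUP1 with age kept its direction under every alternative run. It lost the threshold with flank windows within 100 kb (mean log2 change -0.073, adjusted p = 0.0988) and with the GC slope carried on to the repeat (-0.0079). Leaving out 1 genotype in turn gave -0.18 to -0.13, with adjusted p from 0.0988 to 0.148 and 0.0370 the smallest p the design then allows. It was -0.12 without the 24 h libraries and -0.17 without the 48 h libraries, where 0.125 is the smallest p that exact permutation can give. The ENA change reversed with flank windows within 100 kb (-0.0096), the median nuclear window (-0.10) and GC correction (-0.049), and kept its sign under the other 16.

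The statistic for genotypes at CUP1, a sum of squared mean deviations, was 0.0119. It lost the threshold with flank windows within 100 kb (0.00688), with the step at the window edges (0.00450) or at the edges of the repeated stretch (0.00948), and with the GC slope carried on (0.00925). It did not pass without the 24 h (0.0128) or the 48 h libraries (0.00452), where 0.0417 is the smallest unadjusted p that exact permutation can give. Leaving out 1 genotype gave 0.00129 to 0.0117, with the threshold lost in each of the 4 cases (adjusted exact permutation p 0.0741 to 0.222). The statistic for ENA did not pass the test under any of the 19 alternatives (adjusted exact permutation p 0.123 to 0.804). The difference between CUP1 and ENA in the change of their log2 window ratios with age (-0.19) lost the threshold with flank windows within 100 kb (-0.063). It also did so with the median nuclear window (-0.015), GC correction (-0.030) and the GC slope carried on (-0.020). It could not reach the threshold without the 24 h libraries (-0.16) or without the 48 h libraries (-0.22). In both cases p was 0.125, the smallest that exact permutation can then give. Flank windows wholly within 50 kb and those within 25 kb are the same windows by construction.

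The median CUP1 ratio of 1.66 (10.3 copies) moved to 1.82 (12.2) with GC correction, 1.44 (7.54) with the step at the window edges, of which 1 cuts the repeated stretch, and 1.97 (14.1) with the GC slope carried on. The median ENA ratio of 1.23 (4.46 copies) moved to 1.10 (3.62) with flank windows within 100 kb, 1.03 (3.18) with the median nuclear window and 1.13 (3.81) with GC correction. The other 9 CUP1 and 10 ENA medians stayed within the flank SD.

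Of windows changed with age, 1010 became 631 without Ty or LTR windows (fewer were tested), 433 from log phase and 24 h alone, 281 from log phase and 48 h alone, and 253 to 933 with 1 genotype left out (253 without the spt3 mutant, 315 without wild type). Of windows different among genotypes, 5 became 0 with flank windows within 100 kb (376 at an unadjusted p under 0.05 by limma), 2 without Ty or LTR windows, and 0 in each case with 1 genotype left out (159 to 698 unadjusted). Unless stated, the cause of these shifts was not tested. No pairing by replicate was possible because each genotype and time point had 1 library, and the age tests compared libraries within their genotype instead.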
